A study of Mus musculus with 2 samples.

Results

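The kinesin family was taken as every measured gene whose symbol is Kif followed by a digit, antisense and opposite-strand names left out, which gave 38 of the 28001 features. They were 11 mitotic kinesins, 15 transport kinesins, 6 ciliary kinesins, 5 others and Kif1bp, which is no motor but carries the name. Messenger RNA was counted by droplet single-cell RNA sequencing in the forebrain of C57BL/6J mice at postnatal day 0, from the lateral and dorsal cortex with the hippocampus. There were 2 libraries, 1 of Gmnc-/- animals and 1 of wild-type littermates, and each pooled 4 animals of 2 litters, with no mark that ties a cell to its animal. Gmnc codes for a nuclear protein with a coiled coil that cells need to become multiciliated. The label gives no Cre or promoter and no other allele, so the animals are named here only as lacking Gmnc. With 1 library a genotype no difference below has a test, and intervals are exact 95% intervals for counting error only.

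Kinesins are motor proteins that use ATP to walk along microtubules or to take them apart at their ends. Mitotic kinesins build and elongate the spindle, move chromosomes and finish cell division, so their messages are made mostly in G2 and M phase, while transport kinesins carry vesicles, mitochondria and proteins down axons and dendrites. A further group works in cilia, where kinesins build the axoneme, set its length, drive motility or pass on Hedgehog signals. In the newborn forebrain dividing progenitors and young neurons lie side by side, so both kinds of motor can be read in 1 tissue.

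The promoters of the mitotic and transport kinesins differed in a sequence element that played no part in choosing the groups. In the RefSeq promoter table of GRCm38.p6, which gives 250 bases before and 50 after each start, 10 mitotic, 11 transport, 5 ciliary and 5 other kinesins were matched by symbol. The cell cycle genes homology region (CHR), searched as TTTGAA on both strands, stood in 9 of the 10 mitotic genes (90.0%), 1 of the 11 transport genes (9.09%) and 20.2% of all 27025 genes in the table. Between 70 bases before and 30 after the start it stood in 7 of the 10 mitotic genes, in 1 transport gene, Kif1a, at a second start, and in 5.94% of all genes. A CCAAT box, searched as CCAAT on both strands, stood in 6 of the 10 mitotic genes and 41.1% of all genes. No printed match of 1 motif overlaps a match of the other. A match describes the letters only and is not a shown binding site. The stretch of 100 bases from 70 before to 30 after the start is given 5′ to 3′ for the 7 mitotic genes with a CHR there, and for 3 transport genes without one, since this is where the 2 groups part. Capitals mark the CHR (TTTGAA or TTCAAA) and the CCAAT box (CCAAT or ATTGG).
Kif11, chr19:37376312-37376411, plus strand: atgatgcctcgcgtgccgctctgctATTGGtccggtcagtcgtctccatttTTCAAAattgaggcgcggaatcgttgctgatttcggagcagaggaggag
Kif15, chr9:122951011-122951110, plus strand: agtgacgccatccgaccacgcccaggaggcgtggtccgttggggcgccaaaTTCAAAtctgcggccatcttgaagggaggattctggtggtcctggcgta
Kif22, chr7:127042391-127042490, minus strand: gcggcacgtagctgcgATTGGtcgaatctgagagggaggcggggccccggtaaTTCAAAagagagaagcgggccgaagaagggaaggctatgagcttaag
Kif23, chr9:61946770-61946869, minus strand: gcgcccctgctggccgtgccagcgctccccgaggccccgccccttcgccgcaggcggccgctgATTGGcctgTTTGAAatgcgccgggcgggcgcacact
Kif18b, chr11:102925095-102925194, minus strand: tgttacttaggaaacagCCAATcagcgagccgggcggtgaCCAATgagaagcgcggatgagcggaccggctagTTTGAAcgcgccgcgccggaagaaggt
Kif20b, chr19:34922288-34922387, plus strand: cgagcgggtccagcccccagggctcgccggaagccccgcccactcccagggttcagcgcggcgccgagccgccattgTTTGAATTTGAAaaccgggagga
Kif4, chrX:100625995-100626094, plus strand: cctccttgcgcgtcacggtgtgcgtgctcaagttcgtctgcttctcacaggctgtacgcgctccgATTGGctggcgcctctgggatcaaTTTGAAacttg
Transport kinesins, for comparison, read as follows.
Kif5c, chr2:49619216-49619315, plus strand: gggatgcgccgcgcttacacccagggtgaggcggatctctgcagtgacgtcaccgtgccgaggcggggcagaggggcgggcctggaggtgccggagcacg
Kif1b, chr4:149307704-149307803, minus strand: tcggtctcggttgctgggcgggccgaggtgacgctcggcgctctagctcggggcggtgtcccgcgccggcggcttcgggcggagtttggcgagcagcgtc
Kif21a, chr15:91049922-91050021, minus strand: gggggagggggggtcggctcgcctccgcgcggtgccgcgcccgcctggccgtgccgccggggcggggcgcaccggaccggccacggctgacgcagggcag
Each CHR in the stretches shown began between 19 bases before the start (Kif11 and Kif15) and 20 after it (Kif4), and Kif20b had 2 side by side. Kif15 and Kif22 had a further CHR outside the stretch shown, 234 and 215 bases before the start.

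The libraries differed in ways that bear on every value. The knockout library kept 20293 cells with a median of 4440 UMIs (unique molecular identifiers, counted molecules) and the wild-type library 10566 cells with 6023. They held 327138 and 187799 kinesin UMIs of 101788005 and 79996785 in all. Called doublets, which were removed, were 22.5% of knockout and 3.40% of wild-type cells, and the median mitochondrial share was 1.18% and 3.07%. Cells with the female expression pattern were 9276 and those with the male pattern 5233 in the knockout library, against 7135 and 1595 in the wild-type library. The libraries had 85 barcodes in common, 51 of them among kept cells. Gmnc itself gave 80 and 66 UMIs, 0.786 and 0.825 CPM (UMIs scaled to the usual fixed total of all UMIs) in knockout and wild-type cells. Which exons the allele lacks is not given in the sources used here, so these 3-prime counts check nothing about the label. Mcidas, which is among the ependymal markers used here, gave 11 UMIs in knockout and 558 in wild-type cells, and a class with ependymal markers held 0 knockout and 137 wild-type cells.

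Over all cells the mitotic kinesins stood at about the same summed level in both libraries, 392.6 CPM in knockout and 379.3 CPM in wild-type cells. All 11 passed the filter of 10 UMIs and a mean of 5 CPM, and their median log2 ratio of knockout over wild-type, taken with 5 CPM added to both, was 0.03 (-0.06 to 0.11), with 0.07 for all 11885 genes that passed. None of the 11 was 1.5-fold or more higher, where 4.07% of all genes were, and none was 1.5-fold or more lower, where 6.25% of all genes were. The members did not move together. Kif4, a chromokinesin that also organises the midzone (ENSMUSG00000034311, mm10 chromosome X, 100625737 to 100727214), was at 54.3 and 43.9 CPM in knockout and wild-type cells, a ratio of 1.24 (1.19 to 1.29). Kif11, which pushes the spindle poles apart, was at 82.3 and 69.4 CPM, a ratio of 1.19 (1.15 to 1.23). At the other end, Kif23, the motor of the centralspindlin complex at the midzone (ENSMUSG00000032254, chromosome 9, 61915905 to 61946774), was at 39.1 CPM in knockout and 51.1 CPM in wild-type cells, a ratio of 0.764 (0.731 to 0.798). Kif22, a chromokinesin, was at 30.6 and 36.1 CPM, a ratio of 0.848 (0.806 to 0.893). The other mitotic members lay between these, with ratios of 0.918 for the centromeric depolymerase Kif2c to 1.23 for the cytokinesis motor Kif14. With doublets kept the median moved to 0.15, and in male-pattern cells alone to 0.22.

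**Figure D1:**
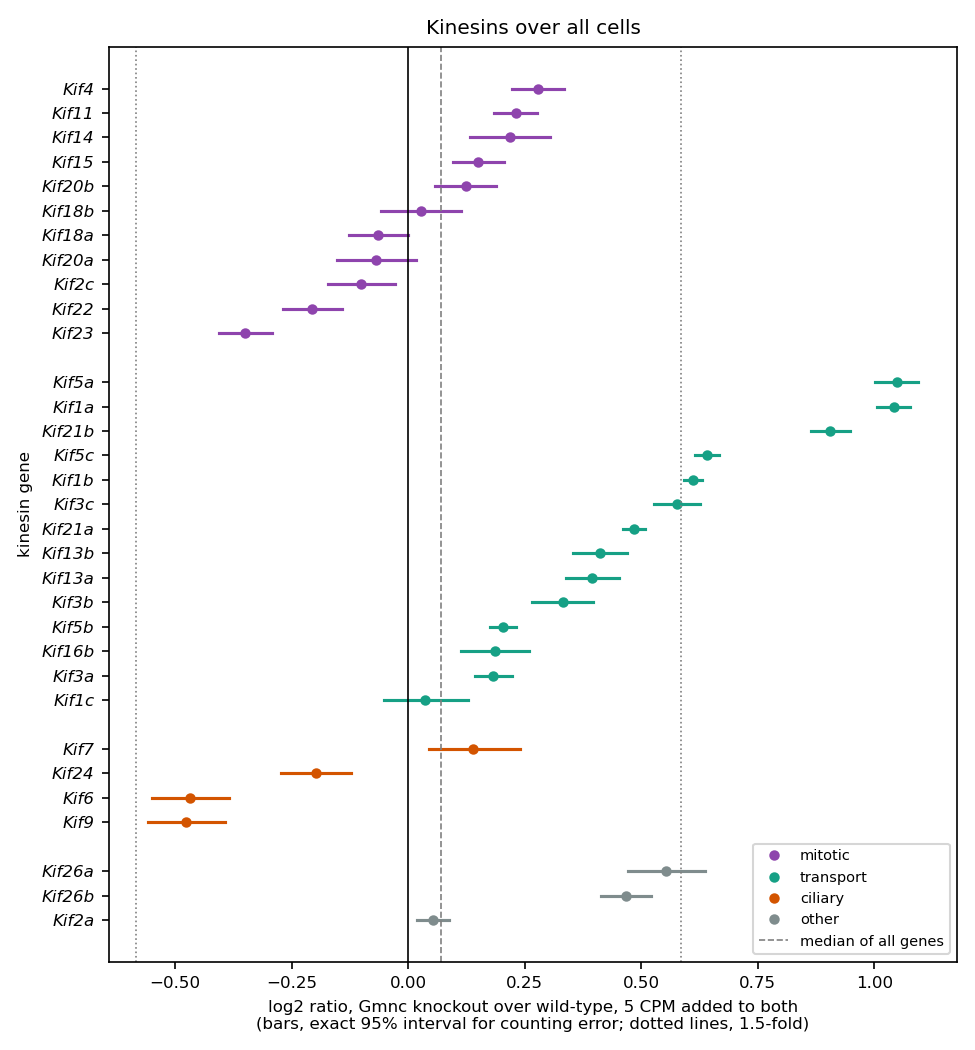
Log2 ratio of knockout over wild-type cells (x axis) for each kinesin that passed the filter (y axis), all cells together, coloured by role. Points are ratios and bars exact 95% intervals for counting error. The transport kinesins lie to the right of 0, from 0.04 for Kif1c to 1.05 for Kif5a, while the mitotic ones spread on both sides, from -0.35 for Kif23 to 0.28 for Kif4.

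Mitotic kinesins followed the cell cycle steeply in both libraries. The neural classes that hold dividing progenitors (astroglia-like, intermediate progenitor-like, interneuron-like and oligodendrocyte lineage-like) were sorted by cell cycle state after each cell was thinned to 2000 UMIs. A cell was G2 and M-marked with UMIs of at least 2 of 14 marker genes of those phases, S-marked with at least 2 of 14 S phase genes otherwise, and no kinesin was among the markers. Kif11 gave 79.4 UMIs per 100 G2 and M-marked knockout cells and 59.3 per 100 wild-type cells, against 2.77 and 4.08 per 100 S-marked cells. Its G2 and M level was thus 28.6 times the S level in knockout cells (19.0 to 45.3) and 14.5 times in wild-type cells (8.88 to 25.6). Kif23 gave 35.9 per 100 G2 and M-marked knockout cells and 39.5 per 100 wild-type cells, 24.8 and 17.2 times the S-marked level. The smallest step was that of Kif20b, a cytokinesis motor, at 8.35 times in knockout and 7.85 times in wild-type cells. Every mitotic kinesin was lower in S-marked than in G2 and M-marked cells in both libraries, and Kif14 had 0 UMIs in the 392 S-marked wild-type cells. Kif2a, a depolymerase close to Kif2c in family that also trims axon branches, gave 32.4 and 32.9 per 100 G2 and M-marked knockout and wild-type cells and 29.0 and 32.4 per 100 S-marked cells, so it showed no such step. Among transport kinesins, the rare Kif17 left aside, the G2 and M level in knockout cells ran from 0.517 times the S level for Kif21b (0.485 times in wild-type cells) to 1.18 times for Kif16b (1.14 times). Kif24, a depolymerase at the mother centriole, was the ciliary member that went with division, at 2.26 (1.61 to 3.25) times in knockout and 3.30 (1.77 to 6.80) times in wild-type cells. The S phase and G2 and M phase labels come from the same cells' counts, so these steps describe the states and are not tested.

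**Figure D2:**
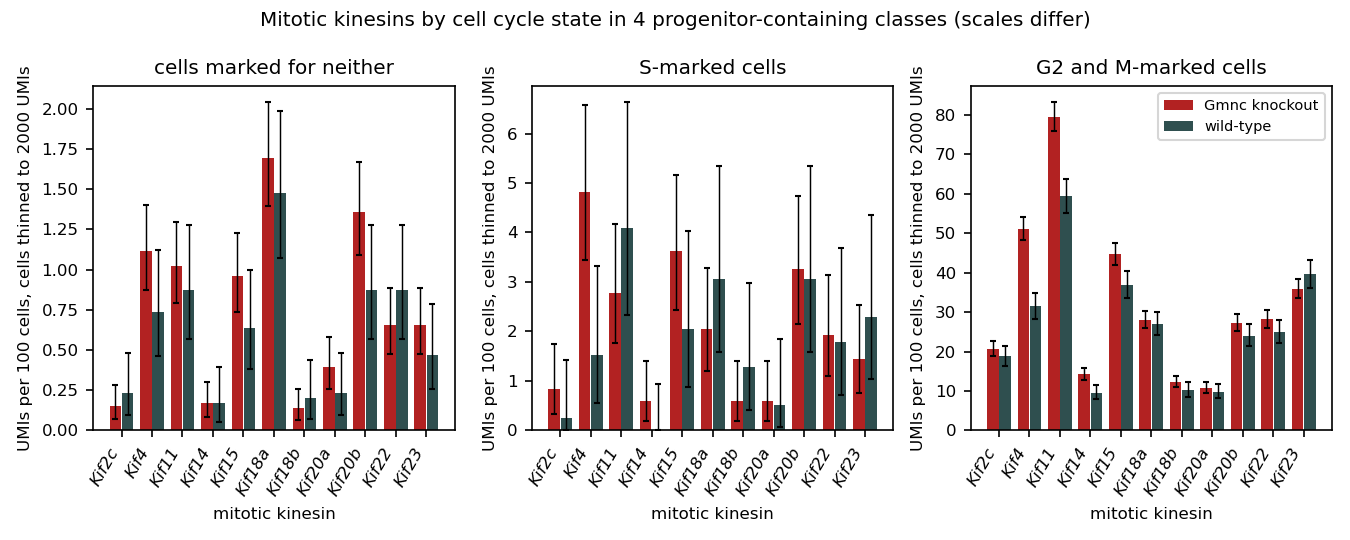
Mitotic kinesin UMIs per 100 cells (y axes, which differ between panels) for each gene (x axes) in cells marked for neither state, for S phase, and for G2 and M phase. Knockout bars stand left of wild-type bars and error bars are exact 95% Poisson intervals. Kif11 reaches 79.4 in G2 and M-marked knockout cells and 59.3 in wild-type ones, and every gene in the S panel stays at or under 4.83.

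Over the progenitor-holding neural classes together, dividing cells were about as frequent in both libraries but not equal in each kinesin. Of the cells deep enough to thin, 2602 of 9681 knockout cells (26.9%) and 1196 of 4568 wild-type cells (26.2%) in those classes held Mki67 or Top2a, which mark cycling cells. By class these shares went either way, at 25.5% and 22.6% in astroglia-like and 34.9% and 37.0% in interneuron-like cells of the knockout and wild-type library, with overlapping intervals. The cells with Mki67 or Top2a carried 3.11 mitotic kinesin UMIs per knockout cell and 2.83 per wild-type cell, a ratio of 1.10 (1.06 to 1.14), and the cells without either marker 0.105 and 0.117. With called doublets kept the ratio was 1.01 (0.972 to 1.06), and among cells with 2 or more G2 and M phase genes it was 1.21 (1.16 to 1.26). Gene by gene in the Mki67 or Top2a cells, Kif4 was 1.48 times as high in knockout cells (45.7 against 30.9 UMIs per 100 cells, 1.32 to 1.67). Kif14 was 1.31 times (1.05 to 1.63), Kif11 1.19 times (1.09 to 1.30) and Kif23 0.812 times as high (0.724 to 0.912, 31.4 against 38.7 per 100 cells). The intervals of the other 7 included 1. This depended on the choice of cells. In G2 and M-marked cells the ratio of Kif23 was 0.909, with an interval of 0.810 to 1.02 that included 1. That of Kif15 was 1.21 (1.08 to 1.36) there, while the intervals of Kif4, Kif14 and Kif11 stayed above 1. For comparison, 7.23% of knockout and 5.76% of wild-type erythroid-like cells held either marker. Such cells carried 0.484 and 0.429 mitotic kinesin UMIs each, from 15 and 6 UMIs. Erythroid-like cells without either marker carried 0.0377 and 0.0218. How much of this share is free RNA was not tested.

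Within classes the mitotic kinesins were read against all genes of the same class. In astroglia-like cells, 9 of 11 were above 0 in log2 ratio with a median of 0.11 (-0.02 to 0.28), close to 0.13 for all genes of the class. It was 0.27 with the looser cell filter and 0.26 in female-pattern cells, and the sign turned under median-of-ratios scaling (-0.02). In interneuron-like cells, which include a dividing cluster, the median was -0.09 with 4 of 11 above 0, and in intermediate progenitor-like cells it was -0.01 with 4 of 11 above 0. None was 1.5-fold or more lower in astroglia-like (all genes 3.02%), interneuron-like (3.23%) or intermediate progenitor-like cells (3.40%), nor any of the few that passed in excitatory neuron-like (3.36%) and striatal-like cells (3.20%). Kif23 was lower in knockout cells in each of these 3 classes, at 79.2 and 110 CPM in interneuron-like, 32.4 and 49.1 CPM in intermediate progenitor-like and 59.3 and 66.0 CPM in astroglia-like cells of the knockout and wild-type library. Clusters 6, 14 and 20 were picked as the ones with the most Kif11 in each of those classes. In them Kif11, not Kif23, was higher in the knockout library throughout. It was at 432 and 306, 447 and 296, and 425 and 336 CPM in knockout and wild-type cells of those clusters. The clusters were picked on Kif11 itself, so these values are no separate support. Over whole neural classes, Kif11 had a ratio above 1 in 2 of the 5 where it passed the filter.

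Oligodendrocyte lineage-like cells had the lowest median of these classes, and the difference between classes was not tested. All 11 mitotic kinesins were lower in their knockout cells, with a median log2 ratio of -0.42 where all genes of the class had 0.06. They summed to 217.5 CPM in knockout and 321.6 CPM in wild-type cells, from 667 and 767 UMIs, a ratio of 0.676 (0.609 to 0.751). In this class 4 of 11 were 1.5-fold or more lower, against 4.28% of all genes. They were Kif2c (7.17 and 20.5 CPM in knockout and wild-type cells), Kif14 (8.48 and 18.9 CPM), Kif22 (13.05 and 26.8 CPM) and Kif18a, which damps chromosome movement (15.3 and 30.2 CPM). Cells with Mki67 or Top2a were 88 of 546 knockout (16.1%) and 46 of 306 wild-type cells (15.03%), and each held 1.52 and 2.02 mitotic kinesin UMIs on average. In 3 small non-neural classes the summed level was also lower in knockout cells, at 207.4 and 375.3 CPM in macrophage-like cells, 62.6 and 168.3 CPM in meningeal fibroblast-like cells, and 73.5 and 471.8 CPM in mural-like cells, the last from 10 and 138 UMIs. In the others it was 429.5 and 402.5 CPM in microglia-like, 110.3 and 115.4 CPM in endothelial-like, and 63.7 and 54.7 CPM in erythroid-like cells, with intervals of the ratio that included 1.

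Transport kinesins were higher in the knockout library as a group. They summed to 2497 CPM in knockout and 1664 CPM in wild-type cells, a ratio of 1.501 (1.49 to 1.51). Of the 15, 14 passed the filter, Kif17 being too low, and all 14 had a log2 ratio above 0, with a median of 0.45 (0.41 to 0.49). With 5 CPM added to both libraries, 5 of them were 1.5-fold or more higher, where 4.07% of all genes were. Without it Kif3c, at a ratio of 1.54, was past that line as well. The group of other kinesins stood as high over all cells, with a median of 0.47 (0.41 to 0.52) over the 3 that passed. Kif26a had a ratio of 1.62 (1.51 to 1.74), Kif26b 1.42 (1.37 to 1.48) and Kif2a 1.04 (1.01 to 1.06). The median of that group was -0.16 in oligodendrocyte lineage-like, -0.04 in excitatory neuron-like and 0.47 in intermediate progenitor-like cells. In bulk sums over all cells, more cells of a type and more RNA per cell cannot be told apart.

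Kif1a, which carries synaptic vesicle precursors (ENSMUSG00000014602, chromosome 1, 93015464 to 93101951), was at 226.1 CPM in knockout and 107.3 CPM in wild-type cells, a ratio of 2.11 (2.06 to 2.16). Kif5a, a heavy chain of conventional kinesin used mostly by neurons (ENSMUSG00000074657, chromosome 10, 127225696 to 127263348), was at 125.2 and 58.0 CPM, a ratio of 2.16 (2.09 to 2.23). Kif21b, which slows microtubule growth and carries cargo in dendrites, was at 149.7 and 77.6 CPM, a ratio of 1.93 (1.87 to 1.99). These 3 kept ratios of 1.67 to 2.16 in female-pattern cells alone and in male-pattern cells alone. Kif5c, a second neuronal heavy chain, was at 338.6 and 215.3 CPM (ratio 1.57) and Kif1b, a carrier of mitochondria and vesicle precursors, at 624.8 and 407.2 CPM (ratio 1.53). Both of these fell under 1.5-fold in male-pattern cells, with ratios of 1.32 and 1.41, and under a mean over cells.

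The remaining transport members were under 1.5-fold with 5 CPM added. Kif3c, Kif21a, Kif13b, Kif13a and Kif3b had ratios of 1.54, 1.41, 1.37, 1.35 and 1.30, and Kif3c, a subunit of kinesin-2, lay just under the line at a log2 ratio of 0.58 with 5 CPM added. Kif5b, the heavy chain that most cell types use, was at 243.7 CPM in knockout and 211.1 CPM in wild-type cells, a ratio of 1.15 (1.13 to 1.18). Kif16b, an endosome motor, and Kif3a, the kinesin-2 subunit needed for building cilia, had ratios of 1.17 and 1.14. Kif1c, a motor of vesicle traffic near the Golgi, was at 10.5 and 10.1 CPM, and its interval of 0.947 to 1.14 included 1.

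The direction held in each neural class. Among the 6 neural classes, 81 combinations of a transport kinesin and a class passed the filter, and all 81 had a ratio above 1, with 68 intervals wholly above 1. For all genes, 60.6% of 64986 such combinations were above 1 and 33.8% had intervals wholly above it. Such combinations repeat the same genes in the same 2 libraries, so they are not independent. For mitotic kinesins 19 of 48 were above 1, with 10 intervals wholly above and 13 wholly below. Transport medians in log2 were 0.32 in excitatory neuron-like, 0.31 in interneuron-like, 0.30 in striatal-like, 0.44 in intermediate progenitor-like, 0.51 in astroglia-like and 0.32 in oligodendrocyte lineage-like cells. Past 1.5-fold higher were 3 of 13 in excitatory neuron-like cells (all genes 2.75%), 3 of 13 in interneuron-like (2.72%) and 3 of 14 in striatal-like cells (3.52%). In intermediate progenitor-like cells there were 4 of 13 (all genes 5.43%), in astroglia-like cells 6 of 14 (3.76%) and in oligodendrocyte lineage-like cells 4 of 14 (5.13%). Kif1a was at 320.8 and 180.3 CPM in knockout and wild-type excitatory neuron-like cells, and at 192.3 and 91.4 CPM in astroglia-like ones, a ratio of 2.11 (1.99 to 2.23) in a class that is not neuronal.

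Free RNA can add to such values, and erythroid-like cells, which should lack neuronal motors, give a reading of it. In them transport kinesins summed to 499.3 CPM in knockout and 156.0 CPM in wild-type cells, a ratio of 3.20 (2.82 to 3.64), and all 11 that passed were 1.5-fold or more higher, where 49.3% of all genes of that class were. Kif1a was at 70.5 and 19.2 CPM there and Kif5a at 32.1 and 8.61 CPM. For comparison, Kif5a was at 22.4 and 10.1 CPM in knockout and wild-type astroglia-like cells. This was below the erythroid-like level in the knockout library and near it in the wild-type one. Astroglia-like cells were deeper, with medians of 5927 and 9322 UMIs in knockout and wild-type cells. Whether they hold Kif5a of their own was not tested. After thinning, a Kif1a UMI was found in 46.6% of knockout and 29.2% of wild-type excitatory neuron-like cells (68.8% and 56.6% without thinning), and in 9.09% and 4.94% of erythroid-like cells (20% and 9.72% without thinning), with median depths of 4114 and 4690 and of 3379 and 4315 UMIs. The erythroid-like classes were themselves unlike, with 6.01 and 49.1 CPM of the erythroid gene Hemgn in knockout and wild-type cells, though Alas2, an enzyme of haem synthesis, was at 924.1 and 729.6 CPM. The part of free RNA in the transport difference was not tested.

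**Figure D3:**
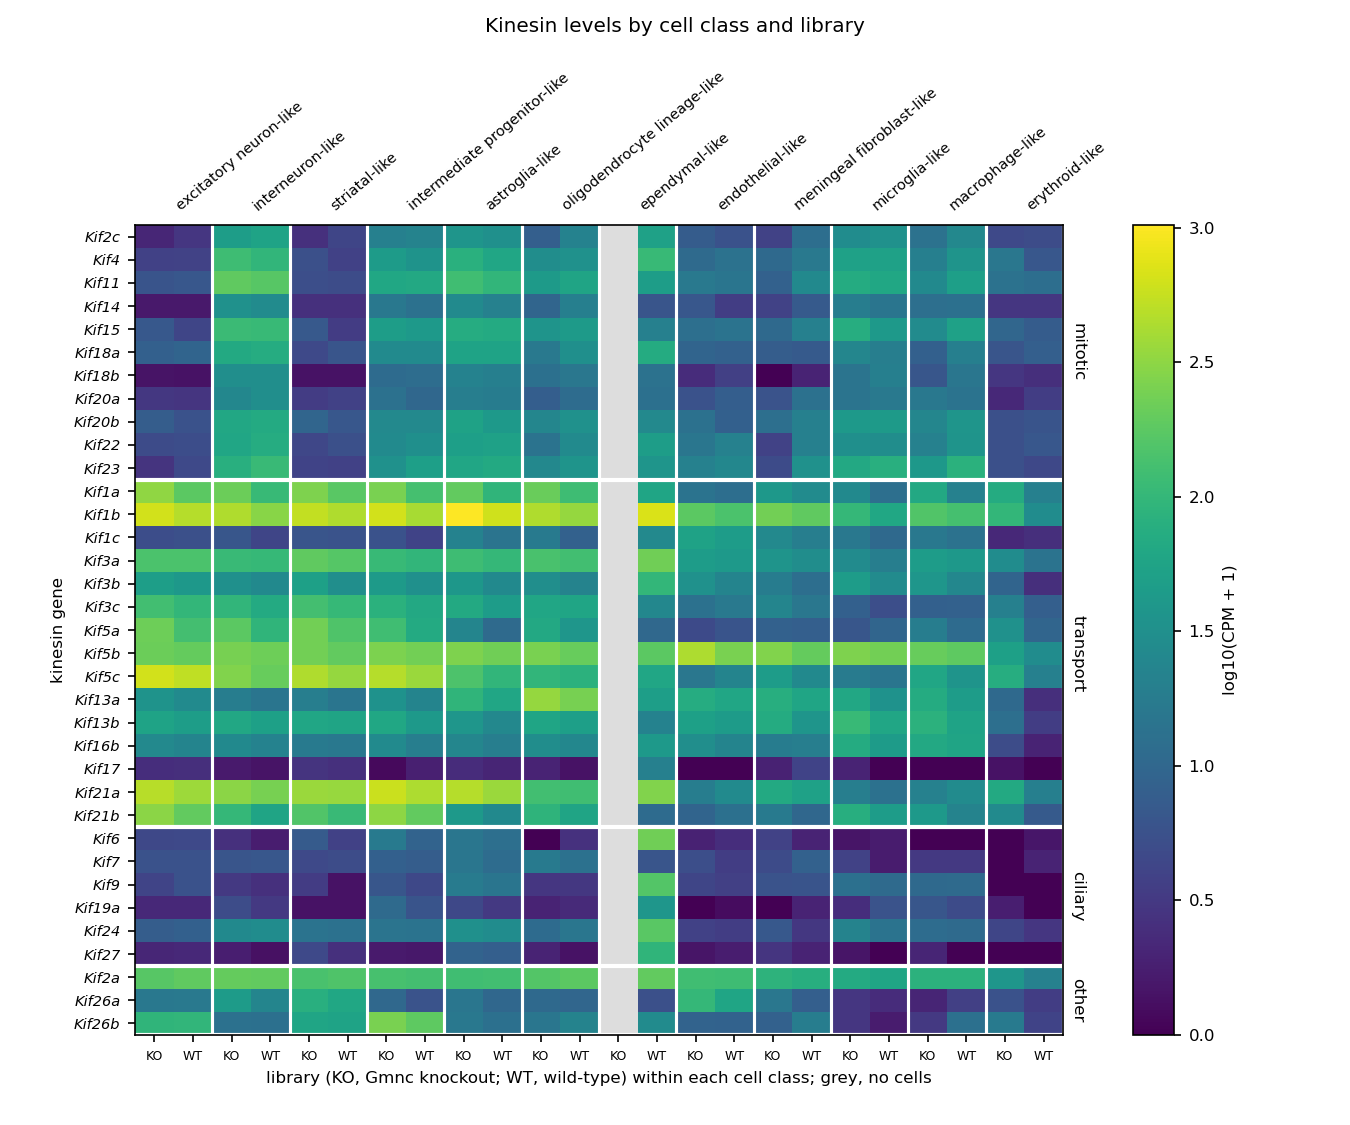
Level of each kinesin (rows, grouped by role) in each cell class, knockout column left of wild-type column, as log10 of CPM plus 1. Mitotic kinesins are bright in interneuron-like and astroglia-like cells and dark in excitatory neuron-like ones. Kif6, Kif9 and Kif27 are bright in the wild-type ependymal-like cells (grey where a library has no such cells). Many transport kinesins, Kif1a and Kif5c among them, are bright in the neural classes. Kif5a is bright in excitatory neuron-like and interneuron-like cells and dimmer in astroglia-like ones, while Kif5b is brightest in endothelial-like cells.

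Some transport and other kinesins marked 1 class or a few. Kif13a, which moves endosomes, stood at 340.5 and 247.8 CPM in knockout and wild-type oligodendrocyte lineage-like cells, against at most 93.2 and 59.9 CPM in any other named class. Kif1b reached 1025 and 619.9 CPM in astroglia-like cells, and 1240.5 and 755.2 CPM in their cluster 16. Kif5b was at 440.2 and 253.7 CPM in endothelial-like cells. Kif21b was at 309 and 191 CPM in excitatory neuron-like cells, but at 457 and 290 CPM in cluster 0 and 120 and 86.1 CPM in cluster 28 of the same class. Kif26b, an unconventional kinesin known from cell adhesion and migration, was at 253.5 and 182.1 CPM in intermediate progenitor-like cells, against 12.41 and 11.99 CPM in interneuron-like cells. Kif26a, its relative without ATPase activity, was at 100 and 57.2 CPM in endothelial-like, 79.4 and 61.1 CPM in striatal-like and 44.1 and 22.6 CPM in interneuron-like cells. Kif2a differed little, at 149.2 CPM in knockout and 143.7 CPM in wild-type cells, and its lowest level in a named class, 37.7 and 20.3 CPM, was in erythroid-like cells. Kif2b had 0 UMIs in both libraries, Kif12 had 0 in knockout and 1 in wild-type cells, and Kif1bp, which binds kinesin motor domains, was at 36.2 and 37.7 CPM.

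Set against each other, the mitotic share of mitotic and transport kinesin UMIs was lower in the knockout library. Over all cells this restates the transport difference and is no separate one, since the transport sum was 1.501 times and the mitotic sum 1.04 times as high in knockout as in wild-type cells. The share was 13.6% (13.5 to 13.7) in knockout and 18.6% (18.4 to 18.8) in wild-type cells, by exact Clopper-Pearson intervals. In interneuron-like cells it was 28.0% and 35.4%, in astroglia-like cells 18.8% and 23.3%, in intermediate progenitor-like cells 9.60% and 13.4%, and in oligodendrocyte lineage-like cells 10.0% and 17.7%. Excitatory neuron-like cells were at 1.14% and 1.51% and striatal-like cells at 1.43% and 1.61%, with overlapping intervals only in the striatal-like ones. Erythroid-like cells were at 11.3% and 26.0%. The share was lower in knockout cells in every named class with cells in both libraries except Cajal-Retzius-like, where 1 knockout cell gave 11 UMIs. UMIs are not divided by transcript length here, so the share says nothing of which group is made more.

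**Figure D4:**
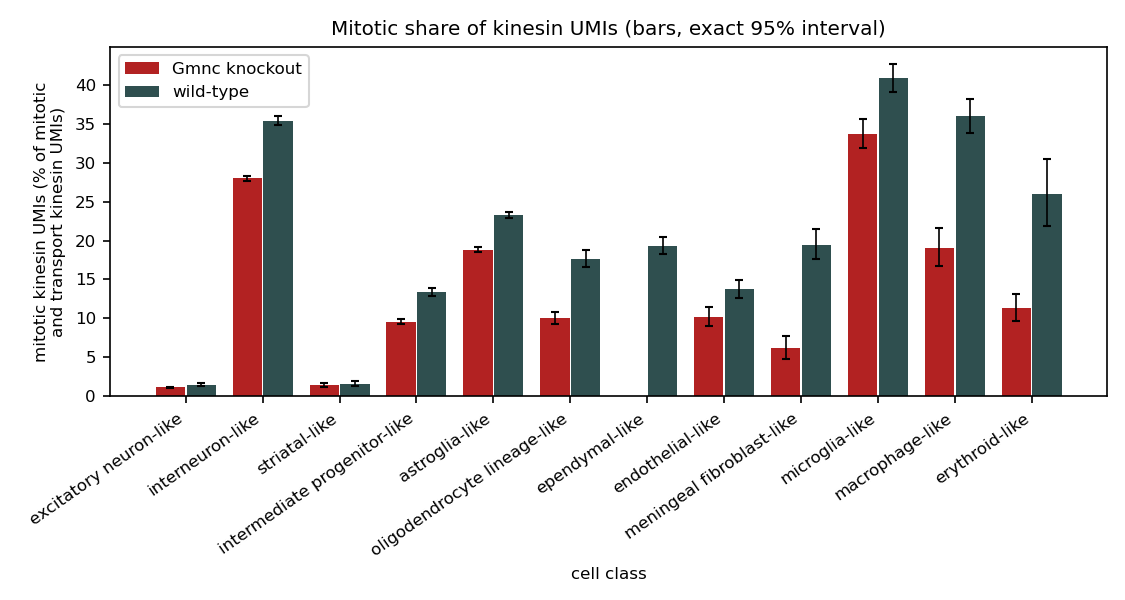
Mitotic kinesin UMIs as a percentage of mitotic and transport kinesin UMIs (y axis) by cell class (x axis), knockout bars left of wild-type bars, error bars exact 95% intervals. Mural-like and Cajal-Retzius-like cells, of few UMIs, are not drawn. In each class drawn with cells of both libraries the knockout bar is the lower one, 28.0% against 35.4% in interneuron-like and 18.8% against 23.3% in astroglia-like cells, and the ependymal-like class has no knockout bar.

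Much of the ciliary kinesin message lay in the ependymal-like cells, which made up 1.30% of wild-type cells and none of the knockout ones. Over all cells Kif6, known from motile cilia (ENSMUSG00000023999, chromosome 17, 49615136 to 49909847), was at 7.40 CPM in knockout and 12.2 CPM in wild-type cells, a ratio of 0.609 (0.553 to 0.670). Kif9, which sits on the central pair of motile cilia, was at 6.60 and 11.2 CPM, a ratio of 0.592 (0.535 to 0.655), and Kif27 at 2.78 and 5.44 CPM, a ratio of 0.511 (0.439 to 0.595). With 5 CPM added none of these was past 1.5-fold. Of the wild-type UMIs, the ependymal-like cells held 58.5% for Kif6, 54.0% for Kif27, 44.7% for Kif9, 41.2% for the kinesin-2 motor Kif17, 35.1% for Kif19a, which keeps cilia short, and 24.7% for Kif24. In those cells Kif6 stood at 225.8 CPM, 43.4 times its level in the other wild-type cells. The Hedgehog regulator Kif7 was not of this kind, with 2.41% of its UMIs there and 7.93 and 6.74 CPM in knockout and wild-type cells. The kinesin-2 subunits Kif3a and Kif3b, which build cilia of any kind, were 2.34 and 3.599 times as high in ependymal-like cells as in other wild-type cells.

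Without the ependymal-like cells, a comparison added after seeing the data, the ciliary kinesins no longer stood lower. Their median log2 ratio, over those that passed the filter, was -0.33 with these cells and 0.11 (0.02 to 0.20) without them. Kif6 then had a ratio of 1.42 (1.26 to 1.61), Kif19a 1.62 (1.35 to 1.95), Kif9 1.04 (0.922 to 1.17) and Kif27 1.08 (0.896 to 1.30). Kif6 was at 15.8 and 8.12 CPM in knockout and wild-type intermediate progenitor-like cells, a ratio of 1.95 (1.44 to 2.68), and at 14.2 and 11.7 CPM in astroglia-like cells. After thinning a Kif6 UMI was in 39 of 120 ependymal-like wild-type cells (32.5%, or 77.4% without thinning), and in 0 of 429 knockout and 0 of 243 wild-type erythroid-like cells, which allows up to 0.699% and 1.23%. The median depth of the ependymal-like cells was 17098 UMIs. A cluster found in 1 library only may be that library rather than a type, although it was named from ependymal markers.

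**Figure D5:**
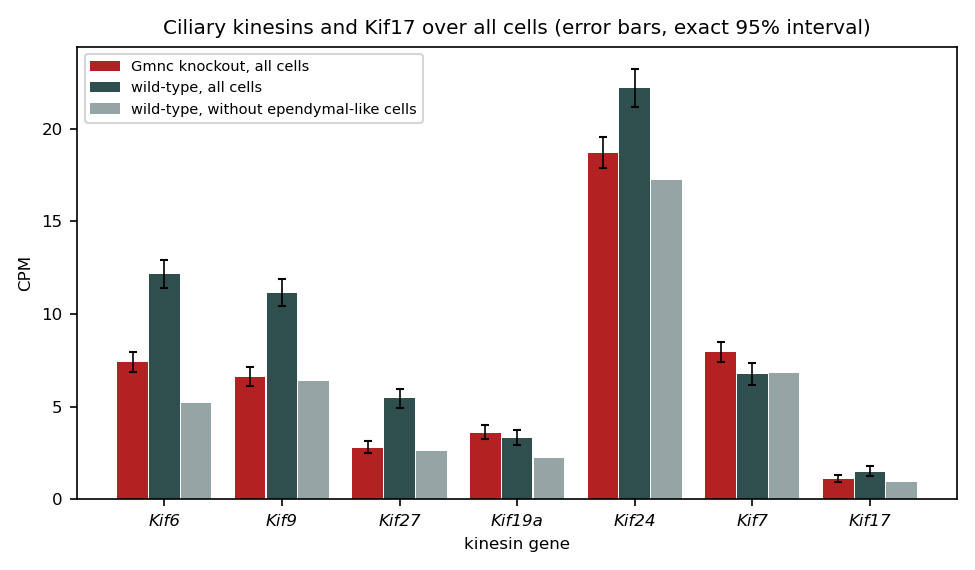
Level in CPM (y axis) of the ciliary kinesins and Kif17 (x axis) over all knockout cells, all wild-type cells, and wild-type cells without the ependymal-like class. Error bars are exact 95% Poisson intervals for the first 2. Kif6 is at 7.40, 12.2 and 5.20 CPM and Kif7 at 7.93, 6.74 and 6.79 CPM in that order.

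The mitotic kinesins did not all stand alike in ependymal-like cells. Of the 120 thinned cells 75.0% held Mki67 or Top2a, yet such cells had 1.02 mitotic kinesin UMIs each, against 2.83 in the Mki67 or Top2a cells of the wild-type progenitor classes. Over the other wild-type classes this value ran from 0.175 in excitatory neuron-like to 3.9 in mural-like cells. The low value is thus not particular to ependymal-like cells. Kif4, Kif18a and Kif2c were at 104.8, 69.4 and 51.6 CPM in ependymal-like cells, 2.498, 1.96 and 2.17 times their levels in other wild-type cells. Kif11 was at 46.4 CPM and Kif14 at 5.16 CPM, below the 70.1 and 13.4 CPM of those other wild-type cells.

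Genes for proteins that work with these motors were read from a list of 42. Of 15 light chains and adaptors of transport kinesins 14 passed, with a median log2 ratio of 0.44, and 2 were past 1.5-fold higher, against 4.07% of all genes. They were Ppfia1, a scaffold of presynaptic sites, at 70.0 and 42.5 CPM in knockout and wild-type cells, and Mapk8ip3, an adaptor of axonal cargo, at 72.8 and 46.3 CPM. Klc1, the light chain of conventional kinesin, was at 130.0 and 87.6 CPM. Of 14 spindle and midzone partners all passed, with a median of -0.04, and 1 was past 1.5-fold lower, against 6.25% of all genes. This was Aurkb, the kinase that recruits and phosphorylates midzone motors, at 16.6 and 32.2 CPM. Racgap1, the partner of Kif23 in centralspindlin, was at 72.8 and 66.6 CPM, a ratio of 1.09 (1.06 to 1.13) where Kif23 had 0.764. In oligodendrocyte lineage-like cells 9 of these 14 were past 1.5-fold lower (all genes 4.28%), with a median of -0.72. The 8 genes of dynein and dynactin, the motor that runs the other way, had a median of 0.33 with 3 past 1.5-fold higher and 1 lower, and the lower one, the light chain Dynll1, was at 338.8 and 567.2 CPM. Of 5 kinesins with other symbols 4 passed with a median of -0.04. Among them the kinetochore motor Cenpe was at 93.3 and 79.8 CPM, and Kifc1 and Kifc5b, which are near-identical copies whose counts may be split, at 26.2 and 27.7 CPM and at 12.3 and 13.2 CPM.

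Gene length moved with the log2 ratio over all genes, and its part in the kinesin values was not tested. Across 11861 genes, which are not independent, Spearman's rho of length and log2 ratio was 0.378. Genes under 25 kb had a median of -0.06, those of 25 to 100 kb 0.15 and those over 100 kb 0.22. The mitotic kinesins of the same lengths had medians of -0.08 (4 genes), 0.14 (6 genes) and 0.28 (Kif4 alone), close to all genes of their length. The transport kinesins had 0.45 at 25 to 100 kb (8 genes) and 0.45 over 100 kb (6 genes), above the 0.15 and 0.22 of all genes of these lengths.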

How the data were processed

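Each deposited file pairs genes and barcodes with raw UMI counts from the authors (Cell Ranger 7.1.0, genome build mm10, per the submitters' processing notes), and how barcodes were filtered before deposit is not stated there. Kept were cells of at least 1000 UMIs whose mitochondrial share was below 10%. Scrublet, run through scanpy 1.11.5 on each library, marked 5885 of 26178 knockout and 372 of 10938 wild-type cells as doublets (20.9% and 8.75% expected), and these were dropped. Clustering took both libraries at once (2000 variable genes, 30 principal components, 15 neighbours, Leiden resolution 1 in igraph 0.11.9), leaving out kinesins and partners. The 34 clusters took "-like" names from 15 marker lists where 3 or more markers were seen in 5% of cells. Minimum scores of 0.8 (neural) and 2.5 (other) were chosen after looking at the data, and 5 unnamed clusters held 9.90% of knockout and 10.7% of wild-type cells.

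UMIs were added up by library and class and scaled to CPM. No test is possible with 1 library a genotype. Intervals are at 95% (exact Poisson for sums, Clopper-Pearson for shares, exact conditional for ratios, SciPy 1.17.1 and NumPy 2.4.6) and hold counting error alone. Where 0 cells held a UMI of a gene, the limit given is 3 cells. Sums of 0 UMIs keep the exact Poisson limit. A prior of 5 CPM on both sides shrinks the log2 ratios of low genes, and the filter asked for 10 UMIs over both libraries and a mean of 5 CPM. A list's median is given with the medians of its members' bounds. Thinning left out 2855 knockout and 1832 wild-type cells under 2000 UMIs. Gene positions are from GENCODE (27645 features matched by identifier) and promoters from RefSeq (GRCm38.p6). In simulated sums over 11885 genes, with no variation but counting, all 71 genes changed 1.5-fold, all 66 changed 2-fold and all 63 changed 4-fold came out in the right direction. The kinesins, role groups, lists and the rule that any kinesin or listed partner may be named were chosen with earlier results of these data known.

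Other settings were cell filters of 500 UMIs with 20% and of 2000 UMIs with 5% mitochondrial share (the second with the main doublet calls), no doublet removal, 1 sex pattern at a time, Leiden resolutions of 0.5 and 2, kinesins left in the clustering, median-of-ratios scaling, averaging CPM over cells, a 1 CPM prior and no gene filter. For cycling cells they were thinning to 1000 UMIs, no thinning, and choice by 2 G2 and M phase genes. Dropping the ependymal-like cells was added after seeing the data.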

Additional observations from a re-analysis of the deposited data

How the results depend on the processing

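No paired analysis was possible because each genotype has 1 library and the labels give no replicate numbers, and for the same reason no replicate could be left out. Of 93 main values under the alternatives, 21 moved out of the main value's interval or, for a count of kinesins, by over 1.5 times, and 72 did not. The transport medians over all cells and in excitatory neuron-like cells were among those that did not move. The mitotic median over all cells was 0.119 with the looser filter, 0.148 with doublets kept and 0.22 in male-pattern cells, against 0.0269, and -0.0235 with the stricter filter. That of astroglia-like cells, 0.111, ran from -0.0239 under median-of-ratios scaling to 0.269 (0.14 to 0.41) with the looser filter, and was 0.262 (0.0941 to 0.437) in female-pattern cells. The ciliary median, -0.333, was -0.254 with doublets kept, -0.423 in female-pattern and -0.0306 in male-pattern cells, 0.0067 as a mean over cells, -0.441 with a prior of 1 CPM and 0.112 (0.0241 to 0.203) without ependymal-like cells, so its sign turned in 2 of these settings. The mitotic share in astroglia-like cells, 0.807 times as high in knockout as in wild-type cells, was 0.877 with the looser and 0.794 with the stricter filter, 0.832 with doublets kept, and 0.873 in female-pattern and 0.853 in male-pattern cells. Mitotic kinesin UMIs per cycling cell, at a ratio of 1.10, were 1.01 with doublets kept and 1.21 with 2 or more G2 and M phase genes. Kinesins past 1.5-fold higher numbered 5, but 3 in male-pattern cells, 3 as a mean over cells, 4 with the looser filter, and 7 each with the stricter filter, in female-pattern cells and with a prior of 1 CPM. Those past 1.5-fold lower numbered 0, but 2 in female-pattern cells and 2 with a prior of 1 CPM. The share of all genes past 1.5-fold is given for the main setting alone, at 4.07% higher and 6.25% lower. The other counts therefore cannot be read as particular to kinesins. Dropping the ependymal-like cells takes cells from the wild-type library alone, and why the values moved in this or any other setting was not tested. Of 50 values of the 5 kinesins past 1.5-fold, 5 were under it, all of them of Kif5c (log2 0.571, 0.396 and 0.467) or Kif1b (0.492 and 0.551). Of 330 values of single kinesins 222 stayed within the main value's interval. Median-of-ratios scaling put the median of all genes at 0.05 rather than 0.07. Low counts limit the small classes, such as 10 mitotic kinesin UMIs in knockout mural-like cells.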
